A study of Homo sapiens with 16 samples.

Results

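Translation initiation and elongation factor genes were taken from the RNA-seq time course as every gene whose symbol begins with EIF1 to EIF6 or with EEF1 or EEF2, leaving out the eIF2 kinases, the 4E-binding proteins, hyphenated symbols and pseudogenes, with a mean of at least 1 TPM (a level scaled for transcript length and for the total of the library) over the 16 libraries. The rule found 53 members among 57820 genes. Of the 57 genes that matched by symbol, 4 were below 1 TPM (EIF2S3L, EIF4E1B, EIF4E3 and EIF5AL1). All 53 members passed the filter on low counts. EIF1AY, on the Y chromosome, is included in the counts and its levels are not given.

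The cells were G401, a SMARCB1-mutant line derived from a kidney rhabdoid tumor and grown in DMEM with 10% FBS. RNA was sequenced on days 1, 2, 3 and 5 from cells with CRISPR-Cas9 knockout of BRD9 (BRD9 KO), a subunit of the SWI/SNF chromatin remodeling complex, and from cells with the control LacZ (LacZ), with 2 libraries for each of the 8 groups. The methods describe cells that stably express Cas9, infected with a guide vector and selected, and the study obtained no BRD9-deficient clone of G401, so the libraries represent populations whose edited share is not given in the sources used here. The libraries of a group were biological replicates per the methods. The event from which days were counted, the number of guides and whether replicates were separate cultures are not given, so the p-values measure the spread between these libraries, part of which may be technical.

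Libraries held 9185850 to 16560717 counts. BRD9 itself had 16.6 to 25.9 CPM (counts scaled to the library total after TMM normalization) in the 8 BRD9 KO libraries and 45.8 to 64.5 CPM in the 8 LacZ libraries, with log2 fold changes of -1.51, -1.34, -1.31 and -1.36 on the 4 days (adjusted p of at most 3.8e-09 from edgeR). SMARCB1 was at 0 TPM in 15 libraries and at 0.19 TPM in 1 LacZ library, and VIM, KRT8 and KRT18 had at least 1366, 2806 and 2517 TPM in all libraries. Of the blood markers PTPRC, CD3E and HBB were at 0 in every library and CD14 had at most 0.37 TPM. Markers of endothelium summed to at most 1.36 TPM over the 4 of 5 genes found by symbol, with KDR at 0 in every library, and those of epithelium to at most 5.59 TPM over 5 genes. The share of counts from genes of mitochondrial DNA was 5.962 to 5.996% in BRD9 KO against 5.26 to 5.29% in LacZ on day 2, 6.60 to 6.69% against 6.34 to 6.37% on day 1, and overlapped between the groups on days 3 and 5.

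Translation begins when eIF2 carries the initiator tRNA to the small ribosomal subunit, which eIF3, eIF1, eIF1A and eIF5 hold ready, while the eIF4F complex binds the mRNA cap and unwinds the leader. The guanine nucleotide on eIF2 is renewed by eIF2B, and eIF5B joins the large subunit. During elongation eEF1A brings aminoacyl-tRNA, the eEF1B subunits recharge eEF1A, eEF2 moves the ribosome along and eIF5A eases peptide bond formation. Many mRNAs of ribosomal proteins and of several of these factors start with a 5′ terminal oligopyrimidine (TOP) tract, a run of C and T at the first base of the mRNA, through which their translation responds to growth signals.

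The starts below show that tract in members on which the results turn. They run from 10 bases before the annotated start to 20 bases from it, 30 bases in all on the strand of the gene, from RefSeq on GRCh38.p14. Capitals mark a C followed by at least 4 further C or T, beginning within 3 bases of the start. EEF1A1, EEF2, EIF3F and EIF4B are known TOP mRNAs with such a run; EEF1G is a known TOP mRNA without one at this annotated start, and EIF4A1 is not on the TOP list.
EEF1A1, chr6:73521013-73521042, minus strand: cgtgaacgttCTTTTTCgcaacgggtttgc
EEF2, chr19:3985444-3985473, minus strand: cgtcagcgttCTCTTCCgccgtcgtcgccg
EIF3F, chr11:7987327-7987356, plus strand: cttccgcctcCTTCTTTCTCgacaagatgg
EIF4B, chr12:53006446-53006475, plus strand: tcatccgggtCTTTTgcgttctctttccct
EEF1G, chr11:62573872-62573901, minus strand: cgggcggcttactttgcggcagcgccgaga
EIF4A1, chr17:7572815-7572844, plus strand: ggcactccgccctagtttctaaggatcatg

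The start table held 44 of the 53 members. A run of this kind was present at 1 or more annotated starts of 16 of these 44 (36.4%) and of 4374 of all 27305 genes in the table (16.02%). Among the TOP list it was present in 5 of the 6 matched members, and among the others in 11 of 38, EIF2D and EIF4E2 included. The run was read on the gene's own strand, and its presence is a description of these letters only.

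Levels per length spanned 3 orders of magnitude. EEF1A1, the common eEF1A, had a mean of 9431 TPM, EEF2 had 2424 TPM, EEF1G 1692 TPM and EIF5A 1022 TPM, and these were the 4 members over 1000 TPM. EIF3F led eIF3 at 835 TPM, EIF4A1 led the eIF4 group at 772 TPM, EIF1 the start site factors at 467 TPM, EIF2S1 the eIF2 group at 196 TPM and EIF2B4 the eIF2B exchange factor at 52.0 TPM. The tissue-restricted paralogs EEF1A2 and EIF5A2 were at 11.96 and 9.04 TPM. Together the members summed to 24333 to 27964 TPM per library, of which the 6 genes with an EEF1 symbol made 46.6 to 52.2%. All 4 day 1 libraries, at 27436 to 27964 TPM, were above all libraries of later days. On days 2, 3 and 5 the sum was lower in both BRD9 KO libraries than in both LacZ libraries (24333 to 24393 against 24965 to 25201 TPM on day 2, and 24751 to 24927 against 25565 to 25604 TPM on day 5), whereas on day 1 it was 27693 to 27964 TPM against 27436 to 27627 TPM.

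**Figure D1:**
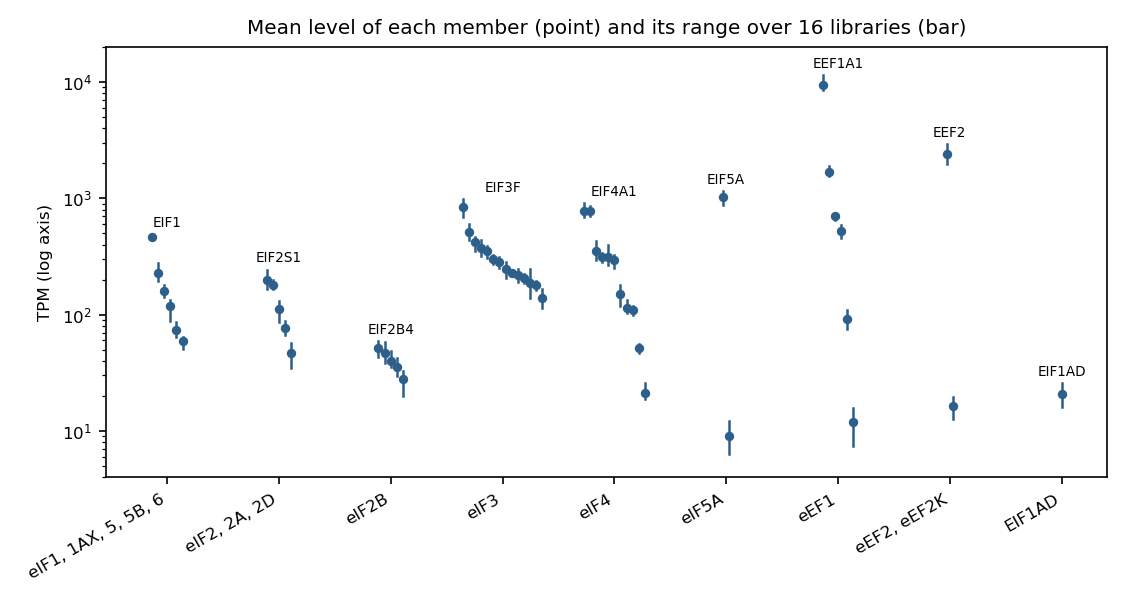
Mean TPM of each member (points, log axis) with its range over 16 libraries (bars), grouped by factor complex, without EIF1AY, and with the most abundant member of each group named. EEF1A1 stood at 9431 TPM and EIF5A2, the lowest, at 9.04 TPM.

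Most members differed little between BRD9 KO and LacZ, and those that changed mostly fell by a few percent. On day 1 edgeR called 1 member higher and 0 lower at an adjusted p below 0.05, where 0.539% of all 15027 genes tested were called (0.273% higher and 0.266% lower). On day 2 it was 0 higher and 4 lower, beside 2.7% of all genes (1.12% higher and 1.58% lower). On day 3 it was 1 higher and 8 lower, beside 10.4% (4.59% higher and 5.85% lower), and on day 5 3 higher and 6 lower, beside 15% (7.53% higher and 7.44% lower). The members' shares were thus 1.89% on day 1, 7.55% on day 2 and 16.98% on days 3 and 5. Of the 53 members, 36 had a mean over 100 TPM, and whether abundance raised these shares was not tested. Their median log2 fold changes were 0.00, -0.02, -0.03 and -0.02 on the 4 days, with that of all genes tested at 0.00 each day. At an unadjusted p below 0.05 there were 9, 17, 16 and 20 members, and all genes tested were not counted at this threshold. The libraries of the 2 groups did not overlap for 26, 25, 31 and 31 of the 53 members on the 4 days. With 2 libraries per group, a lack of overlap was thus common among members that were not called. It was not counted over all genes tested, so whether the members stand out in it is not known. In all, 14 members were called on at least 1 day, 39 on none, and none in both directions. Days 3 and 5 shared 6 calls in the same direction, 66.7% of each day's, namely EEF1A1, EEF1A2, EEF1G, EEF2, EIF2D and EIF3F. In bulk RNA a smaller share of cells with a transcript and less of it per cell cannot be told apart, and all values are relative to the other RNA of the library.

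**Figure D2:**
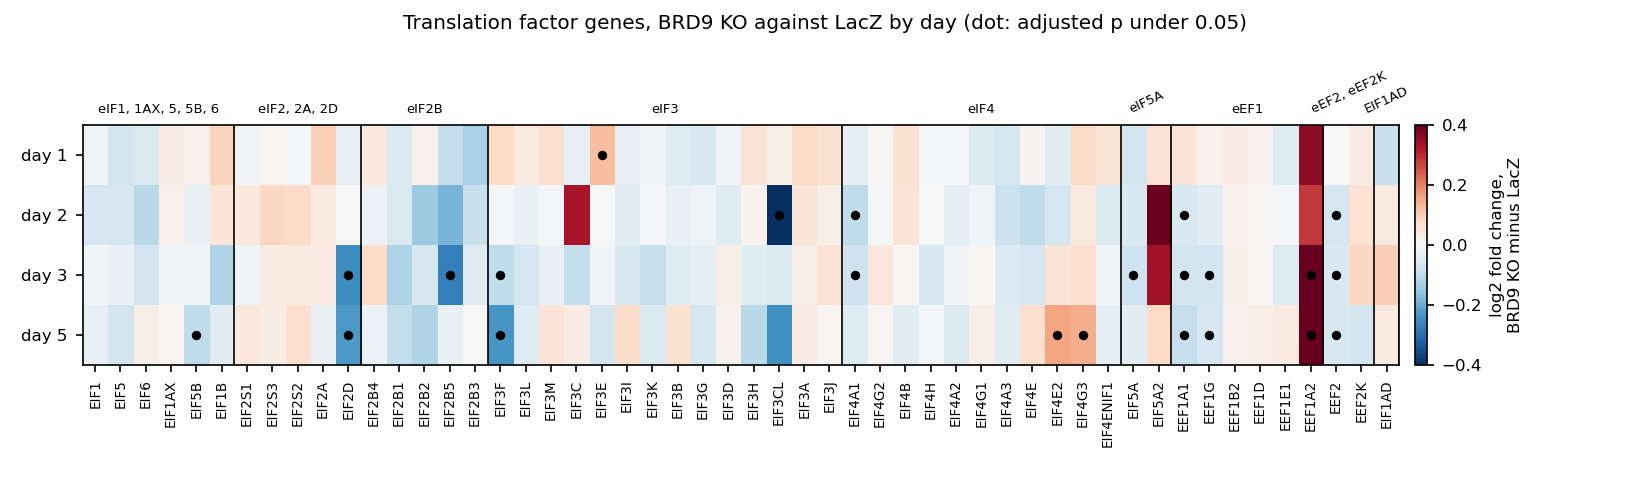
Log2 fold change of BRD9 KO minus LacZ for 52 members (columns, by complex, most abundant first; EIF1AY left out) on each day (rows), with colors saturating at 0.4 in either direction and dots marking an adjusted p below 0.05 from edgeR. Most cells are pale, and EEF1A2 is red on every day. EEF1A1, EEF2, EEF1G, EIF3F and EIF2D carry a dot on days 3 and 5, with EEF1A1, EEF2 and EEF1G only faintly blue. EEF1A1 and EEF2 also carry a dot on day 2.

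Averaged over the 4 days, 4 members were higher and 12 lower, beside 20.2% of all genes (9.72% higher and 10.5% lower), with a median log2 fold change of -0.02. Beyond the members called on single days, this mean added EIF2B1, EIF4A3 and EIF5 below LacZ, and EIF3A and EIF5A2 above it. There were 34 members called neither on any day nor in the mean.

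Of the 8 eEF1 and eEF2 genes, 4 were called on days 3 and 5, of which 3 were lower and 1 higher. EEF1A1, which delivers aminoacyl-tRNA to the ribosome, had 11680 and 11794 CPM in the BRD9 KO libraries and 11180 and 11493 in LacZ on day 1, and 8486 and 8529 against 8913 and 8840 CPM on day 2. On day 3 it had 8804 and 8720 against 9270 and 9177 CPM, and on day 5 8680 and 8789 against 9205 and 9437 CPM. Both BRD9 KO libraries were thus above both LacZ libraries on day 1 and below them on each later day, while the larger difference was between day 1 and the other days in both groups. The log2 fold changes were 0.05 ± 0.01 (SE) on day 1 (adjusted p = 0.078), -0.06 on day 2 (0.0063), -0.07 on day 3 (0.0004) and -0.09 on day 5 (1.7e-05). With limma on log2 TPM, an alternative test, the calls of days 2 and 3 were lost (0.218 and 0.105) and that of day 5 was kept. The day 2 call was lost without BRD9 KO replicate 1 (0.0561) or LacZ replicate 1 (0.0783). On average 16.5% of the reads of EEF1A1 and its pseudogenes lay in pseudogene rows, and with these summed in the log2 fold change on day 5 was -0.10 (adjusted p = 1.5e-05).

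EEF2, the translocase, showed 4514 and 4543 CPM in BRD9 KO and 4573 and 4496 CPM in LacZ on day 1, values that overlapped. On day 2 the values were 3040 and 3079 against 3206 and 3208 CPM, on day 3 3509 and 3514 against 3680 and 3642 CPM, and on day 5 3777 and 3706 against 3916 and 3903 CPM. From day 2 on, both BRD9 KO libraries were below both LacZ libraries. The log2 fold changes were -0.07, -0.06 and -0.06 (SE 0.01, adjusted p = 0.00093, 0.00097 and 0.00031). With limma on log2 TPM the calls of days 2 and 3 were lost (0.336 and 0.544) and that of day 5 was kept. EEF2K, the kinase that inhibits eEF2, had log2 fold changes of -0.07 to 0.08 on the 4 days and was not called.

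EEF1G, a subunit of the exchange factor of eEF1A, had 1667 and 1666 CPM against 1638 and 1656 CPM on day 1 and 1315 and 1322 against 1365 and 1357 CPM on day 2. It had 1372 and 1384 against 1464 and 1442 CPM on day 3 and 1444 and 1422 against 1514 and 1490 CPM on day 5. It fell on days 3 and 5, by 0.08 and 0.07 on the log2 scale (adjusted p = 0.00074 and 0.0012), with no overlap between groups on either day. Both calls were lost with limma on log2 TPM (0.165 and 0.18). The other exchange factor subunits EEF1B2 and EEF1D, and EEF1E1, had log2 fold changes of -0.05 to 0.03 and were not called on any day.

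EEF1A2, the eEF1A paralog of muscle and neurons, went the other way. It had 15.6 and 16.1 CPM in BRD9 KO and 12.3 and 12.5 CPM in LacZ on day 1, 13.4 and 13.3 against 11.2 and 10.7 CPM on day 2, 11.4 and 12.1 against 8.48 and 7.76 CPM on day 3, and 15.9 and 15.8 against 11.3 and 10.4 CPM on day 5. Both BRD9 KO libraries were above both LacZ libraries on every day. The log2 fold change was 0.36 ± 0.09 (SE) on day 1 (adjusted p = 0.09), 0.28 on day 2 (0.22), 0.53 on day 3 (0.0016) and 0.54 on day 5 (0.0003), and the mean over the days was 0.43 (1.9e-06). Its day 3 call was lost without LacZ replicate 2 (0.0525). In TPM, EEF1A2 remained a small share of the sum of EEF1A1 and EEF1A2, at 0.180% ± 0.001 in BRD9 KO and 0.113% ± 0.007 in LacZ on day 5 (SD, n = 2).

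EIF5A, which eases peptide bond formation, had 612 and 627 CPM in BRD9 KO against 654 and 651 CPM in LacZ on day 1, 721 and 744 against 759 and 769 CPM on day 2, 643 and 659 against 688 and 691 CPM on day 3, and 723 and 712 against 747 and 731 CPM on day 5. The groups did not overlap on any day. It was called on day 3 (log2 fold change -0.08 ± 0.02 SE, adjusted p = 0.0085), a call lost without BRD9 KO replicate 1 (0.117), LacZ replicate 1 (0.0669) or LacZ replicate 2 (0.06). With limma on log2 TPM the day 3 call was lost as well (0.204). In the mean over 4 days EIF5A had -0.07 (7.7e-05 from edgeR). Its paralog EIF5A2 had 13.7 and 12.2 CPM against 10.8 and 9.03 CPM on day 2 and 11.8 and 13.4 against 8.97 and 10.8 CPM on day 3, with no call on a single day. On days 1 and 5 it had 11.1 and 10.1 against 9.32 and 10.8 CPM and 10.7 and 10.3 against 9.75 and 10.2 CPM. Its mean over 4 days of 0.22 ± 0.06 (SE) was called (0.022) and fell short without the first LacZ library of day 1 (0.0517), the first BRD9 KO library of day 2 (0.0628), the second LacZ library of day 2 (0.0583) or the first LacZ library of day 3 (0.0586). It was 0.07 on log2 TPM (limma, adjusted p = 0.83).

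**Figure D3:**
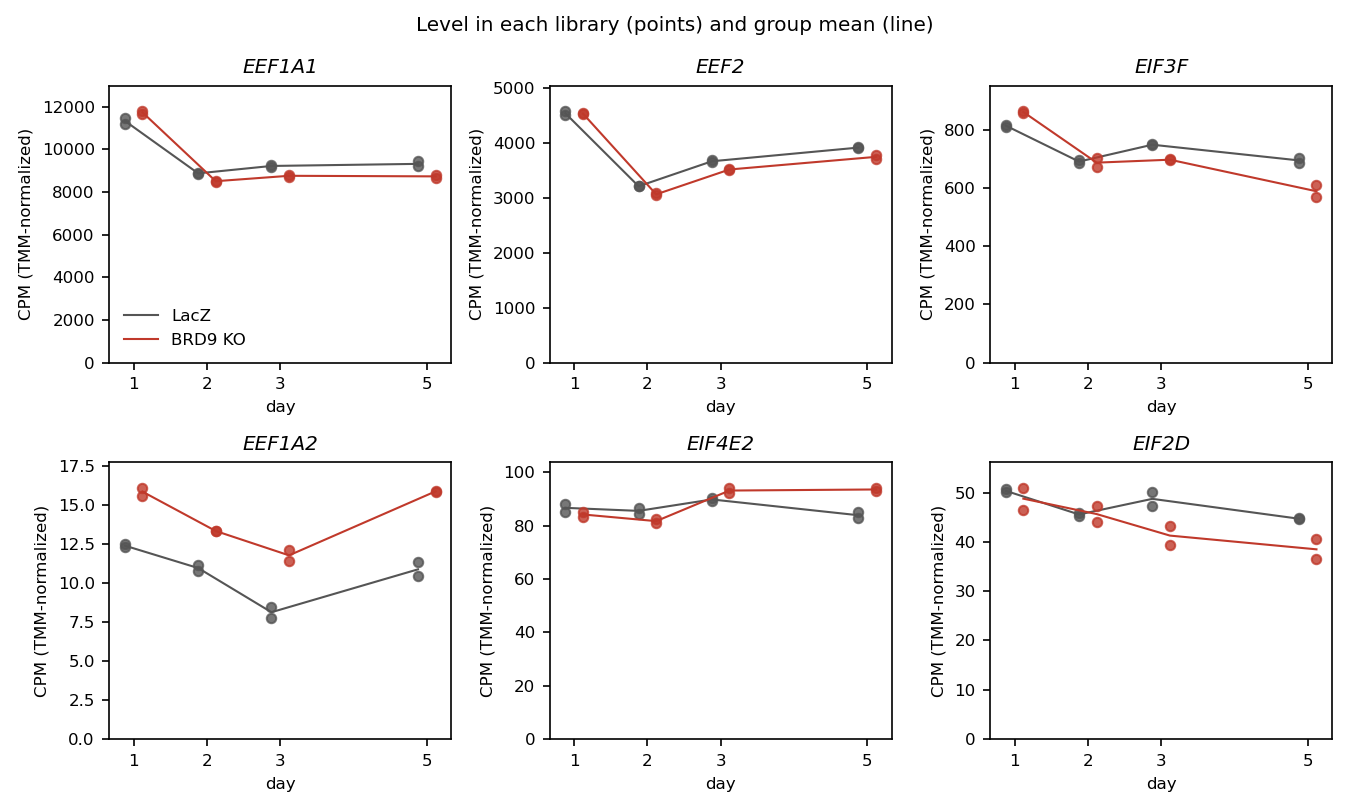
TMM-normalized CPM (vertical axes from 0) of 6 members by day, with 1 point per library and lines through the means of the 2 libraries of BRD9 KO (red) and LacZ (gray). EEF1A1 and EEF2 ran slightly below LacZ from day 2, EEF1A2 ran above it on all days, EIF3F and EIF2D lay below it on days 3 and 5 and EIF4E2 above it on day 5.

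Among the 14 eIF3 genes EIF3F was the 1 called on day 5. It had 858 and 864 CPM in BRD9 KO and 811 and 818 CPM in LacZ on day 1, 671 and 703 against 696 and 685 CPM on day 2, 698 and 696 against 747 and 750 CPM on day 3, and 568 and 609 against 686 and 704 CPM on day 5. The BRD9 KO libraries were above LacZ on day 1, overlapped on day 2 and were below on days 3 and 5. The log2 fold changes were 0.08 ± 0.03 (SE, adjusted p = 0.22), -0.01 (0.94), -0.10 (0.014) and -0.24 (3.2e-06). The day 3 call was lost without any 1 of the 4 day 3 libraries, namely BRD9 KO replicate 1 (0.0741) or 2 (0.0717) or LacZ replicate 1 (0.0891) or 2 (0.0832). With limma on log2 TPM the day 3 call was lost as well (0.0721). The day 5 call was kept under all 13 alternatives, with log2 fold changes of -0.29 to -0.19.

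EIF3E was the 1 member called on day 1, with 313 and 329 CPM in BRD9 KO and 295 and 295 CPM in LacZ (log2 fold change 0.12 ± 0.03 SE, adjusted p = 0.0496). It was not called without BRD9 KO replicate 1 (0.0587) or 2 (0.399) or LacZ replicate 1 (0.25) or 2 (0.224), nor with a replicate block (0.0735). On day 5 it stood at 274 and 280 against 289 and 294 CPM, with a log2 fold change of -0.07 (0.091), and on days 2 and 3 at 253 and 255 against 257 and 250 CPM and 307 and 303 against 304 and 312 CPM. EIF3A, the largest subunit, had 562 and 561 against 535 and 534 CPM on day 1 and 559 and 561 against 544 and 536 CPM on day 2. It had 616 and 614 against 600 and 610 CPM on day 3 and 610 and 599 against 593 and 588 CPM on day 5, so that both BRD9 KO libraries were above both LacZ libraries on each day. It was called in the mean over 4 days at 0.05 ± 0.01 (SE, 0.00077). The remaining eIF3 genes other than EIF3C and EIF3CL were not called on any day or in the mean, with log2 fold changes on single days of at most 0.11 in size.

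EIF3C and EIF3CL encode the same subunit, eIF3c, and lie on chromosome 16 at chr16:28699879-28747048 and chr16:28390900-28415162 (GRCh37). The estimated counts of the pair shared reads, with a posterior SD of 5.53 to 11.1% of the count for EIF3C and 6.21 to 16.004% for EIF3CL, where no other member exceeded 2.58%. On day 2 EIF3C had 420 and 399 CPM in BRD9 KO and 307 and 346 CPM in LacZ, whereas EIF3CL had 311 and 334 against 439 and 410 CPM. Taken singly, EIF3C had a log2 fold change of 0.33 ± 0.09 (SE, adjusted p = 0.078) and EIF3CL one of -0.40 ± 0.09 (0.024). That call was lost without BRD9 KO replicate 1 (0.229) or 2 (0.0694) or LacZ replicate 1 (0.212) or 2 (0.0673), and the split between the pair is uncertain.

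The sum of the pair was far steadier. It was 665 and 678 CPM in BRD9 KO and 672 and 676 CPM in LacZ on day 1, 731 and 732 against 746 and 755 CPM on day 2, 650 and 667 against 691 and 695 CPM on day 3, and 674 and 670 against 717 and 717 CPM on day 5. BRD9 KO was below LacZ without overlap on days 2, 3 and 5. In a fit of the summed counts, added after the data were seen, the log2 fold change of the pair was 0.00 on day 1 (adjusted p = 0.99), -0.04 on day 2 (0.33), -0.08 on day 3 (0.0064) and -0.09 on day 5 (0.00063). Neither gene was called on day 3 or 5 by itself, with EIF3C at -0.09 and 0.03 and EIF3CL at -0.05 and -0.24.

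**Figure D4:**
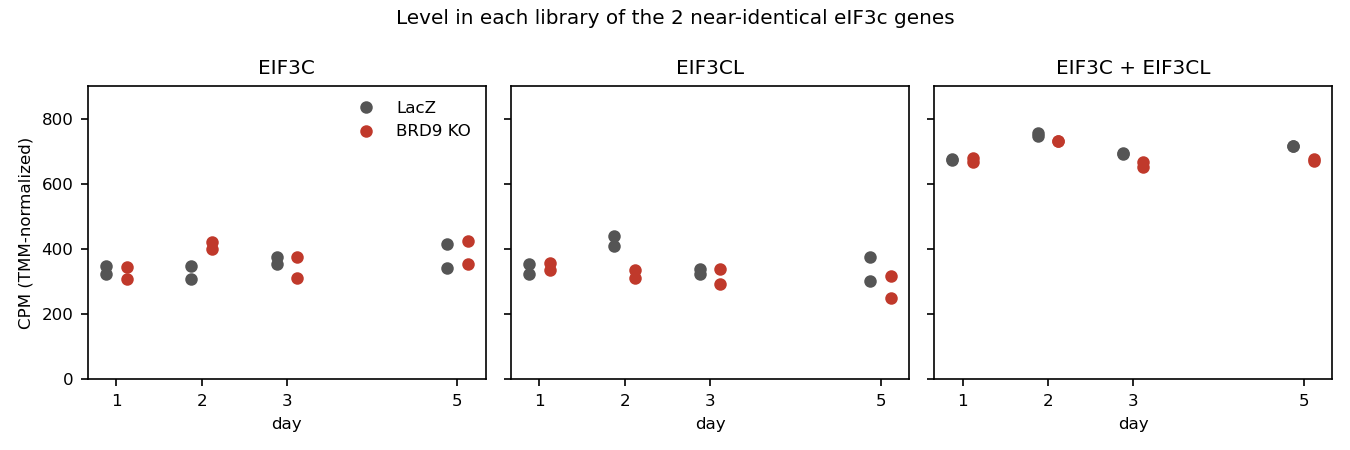
TMM-normalized CPM in each library (points) of EIF3C, EIF3CL and their sum by day, for BRD9 KO (red) and LacZ (gray). The separate rows scatter between 250 and 439 CPM, while the sums of replicates lie within 17.2 CPM of each other.

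The eIF4 group, which binds the cap and unwinds the leader, held calls in both directions. EIF4A1, the main helicase, had 680 and 682 CPM against 694 and 704 CPM on day 1, 759 and 781 against 813 and 839 CPM on day 2, 633 and 641 against 673 and 674 CPM on day 3, and 653 and 662 against 687 and 676 CPM on day 5. Both BRD9 KO libraries were the lower on all 4 days. It was called on day 2 (-0.10 ± 0.02 SE, adjusted p = 0.004) and day 3 (-0.08, 0.009). The first call was lost without BRD9 KO replicate 1 (0.0766) or LacZ replicate 2 (0.0818), and the second without BRD9 KO replicate 1 (0.0881) or LacZ replicate 1 (0.0728) or 2 (0.059). With limma on log2 TPM both calls of EIF4A1 were lost (0.167 and 0.444). Its paralog EIF4A2 had log2 fold changes of -0.06 to -0.01 and was not called on any day.

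EIF4E2, a cap-binding paralog of EIF4E that represses translation, had 92.8 and 94.2 CPM in BRD9 KO and 85.1 and 82.7 CPM in LacZ on day 5. On days 1 to 3 it had 85.0 and 83.3 against 85.1 and 88.2 CPM, 80.8 and 82.5 against 84.3 and 86.7 CPM, and 92.1 and 94.1 against 90.3 and 89.2 CPM. The log2 fold change was negative on days 1 and 2 (-0.05 and -0.07) and reached 0.16 ± 0.04 (SE) on day 5 (adjusted p = 0.007). EIF4G3, a paralog of the scaffold EIF4G1, had 147 and 151 against 137 and 132 CPM on day 5 (0.14 ± 0.04 SE, 0.013). Both calls on day 5 were lost without BRD9 KO replicate 2 (0.0776 for EIF4E2 and 0.13 for EIF4G3) or LacZ replicate 2 (0.0865 and 0.133), and DESeq2 gave 0.0798 for EIF4E2. EIF4G3 had 153 and 162 against 152 and 148 CPM, 140 and 138 against 139 and 131 CPM, and 156 and 153 against 146 and 150 CPM on days 1 to 3. It was called in the mean over 4 days (0.08, 0.0045), a call lost with limma on log2 TPM (0.166). With limma its day 5 call was lost as well (0.218). EIF4E and EIF4G1 had log2 fold changes of -0.10 to 0.06 and -0.05 to 0.03 and were not called. EIF4A3, which also serves in the exon junction complex, was called only in the mean over 4 days, at -0.06 ± 0.02 (SE, 0.017).

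Of the 5 genes that carry initiator tRNA or act likewise, the 3 eIF2 subunits EIF2S1, EIF2S2 and EIF2S3 had log2 fold changes of -0.02 to 0.08 and none was called. EIF2D, which can deliver tRNA without GTP and acts in ribosome recycling, had 39.3 and 43.3 CPM in BRD9 KO against 50.1 and 47.4 CPM in LacZ on day 3, and 40.5 and 36.5 against 44.6 and 44.8 CPM on day 5. On days 1 and 2 it had 46.5 and 51.0 against 50.1 and 50.6 CPM and 44.04 and 47.2 against 45.3 and 45.8 CPM, overlapping between groups. It was called on day 3 (-0.25 ± 0.06 SE, adjusted p = 0.014) and day 5 (-0.23, 0.022). The day 3 call was lost without BRD9 KO replicate 1 (0.248) or LacZ replicate 1 (0.161), and that of day 5 without BRD9 KO replicate 2 (0.333) or LacZ replicate 1 (0.107) or 2 (0.0951). For these days DESeq2 gave adjusted p of 0.0738 and 0.108, and limma on log2 TPM gave 0.399 and 0.59.

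The eIF2B genes lay mostly below LacZ, with medians of -0.06, -0.09, -0.06 and -0.03 over 5 genes on the 4 days. EIF2B5, the catalytic subunit, was the 1 called on a single day, with 41.0 and 38.0 CPM against 46.7 and 49.2 CPM on day 3 (-0.27 ± 0.06 SE, adjusted p = 0.0081), lost without BRD9 KO replicate 2 (0.078) or LacZ replicate 2 (0.105). Its other values were 38.2 and 37.9 against 40.5 and 40.8 CPM on day 1, 41.2 and 37.5 against 47.9 and 41.8 CPM on day 2, and 43.9 and 42.5 against 43.8 and 44.4 CPM on day 5, where the groups overlapped. In the mean over 4 days EIF2B5 had -0.15 (0.003) and EIF2B1, a regulatory subunit, -0.08 (0.027). With limma on log2 TPM neither the mean nor day 3 was called for EIF2B5 (0.261 and 0.368). Among the start site factors, EIF5B had 224 and 226 against 241 and 243 CPM on day 5 (-0.10 ± 0.03 SE, 0.024), lost without BRD9 KO replicate 1 (0.102) or 2 (0.0869) or LacZ replicate 1 (0.0896) or 2 (0.114). EIF5, the GTPase activator of eIF2, was called in the mean over 4 days (-0.06, 0.0013), with both BRD9 KO libraries below both LacZ libraries on each day. This call was lost with limma on log2 TPM (0.236), as was the day 5 call of EIF5B (0.298). For EIF5B on day 5 DESeq2 gave 0.0506. EIF1, EIF1AX, EIF1B and EIF6 were not called.

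Whether the log2 fold change shifted from the early days (1 and 2) to the late days (3 and 5) was tested as a contrast of its own. In it 1 member rose and 6 fell, beside 7.41% of all genes (3.4% higher and 4.01% lower). A fall here is a shift to a lower log2 fold change and need not be a larger difference from LacZ. EIF3F had the smallest adjusted p, at -0.21 ± 0.03 (SE, 3.6e-05), followed by EEF1A1 at -0.08 ± 0.01 (0.00028). The others that fell were EEF1G, EIF2D, EIF3E and EIF4B, a cofactor of the helicase, and EIF4E2 rose. Over 16 fits that each left out 1 library, the call of EIF2D was lost 11 times (adjusted p up to 0.152), that of EIF3E 6 times (up to 0.0739) and that of EIF4B 2 times (up to 0.0577). EIF4B had 911 and 904 CPM in BRD9 KO against 883 and 858 CPM in LacZ on day 1 and 699 and 707 against 734 and 712 CPM on day 5, with 625 and 627 against 606 and 601 CPM and 699 and 699 against 690 and 701 CPM in between. It was above LacZ on days 1 and 2, overlapped on day 3 and was below on day 5, with no call on a single day.

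Of these 6 members that fell, 5 are on the list of 10 known TOP mRNAs among the members (EEF1A1, EEF1B2, EEF1D, EEF1G, EEF2, EIF3A, EIF3E, EIF3F, EIF3H and EIF4B). Among the other 43 members 1 fell (EIF2D) and 1 rose (EIF4E2). The list was chosen with earlier results of these data known, so these counts are a description and not a test. With limma on log2 TPM, EIF3F was the 1 member called in this contrast. The median of late minus early was -0.07 for the TOP list and 0.00 for the other members. By day, the TOP list had medians of 0.05, 0.00, -0.03 and -0.07. Of it, 1, 0, 0 and 0 were called higher and 0, 2, 4 and 4 lower. The other members had medians of -0.01, -0.02, -0.03 and 0.00. Of these, 0, 0, 1 and 3 were called higher and 0, 2, 4 and 2 lower. Called by day were 10%, 20%, 40% and 40% of the TOP list and 0%, 4.65%, 11.6% and 11.6% of the others. For all genes tested the shares were 0.539%, 2.7%, 10.4% and 15%. EEF1B2 and EEF1D had 0.02 to 0.03 and 0.00 to 0.03 on the single days, with no call. The median SE on day 5 was 0.02 for the list and 0.04 for the other members. Ribosomal protein genes, the bulk of TOP mRNAs, had a summed level on day 1 of 139739 to 142609 TPM with BRD9 KO against 140747 to 142157 TPM with LacZ. The sums were 125823 to 126981 against 128933 to 131230 TPM on day 2 and 131905 to 132926 against 135370 to 135787 TPM on day 3. On day 5 they were 130324 to 131640 against 135228 to 135628 TPM, so the groups were apart from day 2 on.

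**Figure D5:**
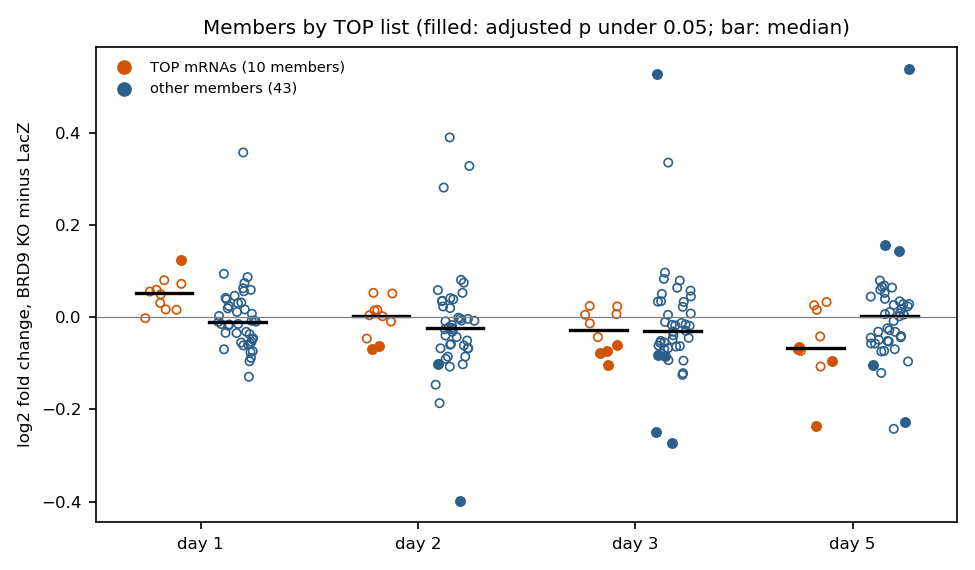
Log2 fold change of BRD9 KO minus LacZ by day for the 10 members on the TOP list (orange) and the other 43 (blue), with filled points for an adjusted p below 0.05 from edgeR and bars at the median. The orange median moves from 0.05 on day 1 to -0.07 on day 5, while the blue median is -0.01 and 0.00 on these days.

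In the LacZ cells alone, from day 1 to day 5, 17 members rose and 10 fell. This was 50.9% of the members, beside 25.6% of all genes (12.7% higher and 12.9% lower). EIF4A2 fell by 0.36 on the log2 scale, EEF1A1 by 0.28, EIF4B by 0.27, EIF3F by 0.23 and EEF2 by 0.21, and EIF3L, EEF1G and EIF4G3 fell by 0.18, 0.13 and 0.15 (EIF4G3 at an adjusted p of 0.0574 without LacZ day 5 replicate 2). EIF2S2 rose by 0.28, EIF3B by 0.26, EIF4A3 by 0.24, EEF1E1 by 0.23, EIF3M and EIF3J by 0.21 each and EIF5A by 0.18. On the TOP list 3 rose (EEF1B2, EEF1D and EIF3A) and 6 fell. This contrast shares the LacZ libraries of days 1 and 5 with the comparisons above.

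Translation genes outside the factors were 43 in number and all tested. They showed 1 higher and 0 lower on day 1, and 0 and 0 on day 2 (9 at an unadjusted p below 0.05, not counted over all genes). On day 3 it was 0 and 2, and on day 5 1 and 5. The shares called were 2.33%, 0%, 4.65% and 13.95%, beside 0.539%, 2.7%, 10.4% and 15% of all genes tested. PABPC1, the poly(A)-binding protein that contacts eIF4G and another known TOP mRNA, had the smallest adjusted p on day 5, with 4650 and 4643 CPM in BRD9 KO against 4448 and 4427 CPM in LacZ on day 1 and 3078 and 3101 against 3843 and 3838 CPM on day 5. Its log2 fold changes were 0.07, -0.04, -0.11 and -0.31 on the 4 days (adjusted p = 0.014, 0.078, 3.2e-06 and 9.8e-13). PDCD4, an inhibitor of eIF4A, fell by 0.15 on days 3 and 5 (0.0029 and 0.0013). On day 5 EIF4EBP1, an inhibitor of eIF4E, had 46.2 and 46.3 against 39.6 and 36.5 CPM (0.28, 0.0027), while its paralog EIF4EBP2 fell by 0.12 (0.019), RPTOR, a subunit of mTORC1, by 0.20 (0.008), and DPH6, which helps make the diphthamide of eEF2, by 0.44 (0.003). None of the 6 eIF2 kinase and phosphatase genes or the 8 termination and recycling genes was called on any day.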

How the data were processed

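RNA of G401 cells was sequenced in 16 libraries, 2 for each guide (BRD9 or LacZ) and day. The authors aligned reads to hg19 with STAR and deposited RSEM expected counts and TPM for each gene and library, in which shared reads are divided among genes by likelihood. The library kit does not mark strand, so reads of overlapping antisense genes cannot be told apart. The methods name DESeq2 without a design.

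Expected counts were rounded and tested with edgeR 4.0.16 (quasi-likelihood, TMM, 8 group means, 8 residual degrees of freedom) over 15027 genes kept by filterByExpr (count 10, total 15). A call is an adjusted p below 0.05 (Benjamini-Hochberg, all genes tested). TPM served for levels between genes and CPM for comparisons between libraries. With 2 libraries per group of 9185850 to 16560717 counts, precision is limited. The fit was tested on simulated data with changes larger than those of the members. That run does not bear on differences of a few percent. 1 of the blood markers is not reported here. Members and lists, the TOP list included, were chosen with earlier results of these data known. Named by rule were the most abundant member of each complex, up to 8 calls with the smallest adjusted p per direction (day 3, day 5, mean of days, late minus early), all calls on day 1 or 2, paralog pairs, and up to 6 called translation genes outside the factors. Other members given with a call, such as EIF2B1 and EIF4A3, were not followed gene by gene through the alternatives. They are not among the calls of named members counted below. Alternatives were DESeq2 1.42.0, its size factors, no and a stricter filter, limma 3.58.1 on log2 TPM (pseudocount 1), a fit to the contrast's own libraries, a replicate block and each library left out. Sums with pseudogenes (EIF3C with EIF3CL) and a fit without genes of mitochondrial DNA were added after the data were seen. Gene coordinates are from GENCODE on GRCh37, by Ensembl ID for all 53 members, and starts from RefSeq on GRCh38.p14.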

Additional observations from a re-analysis of the deposited data

Results flagged for a closer look

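The results below were picked out because the difference between BRD9 KO and LacZ itself differed between days 3 and 5 and days 1 and 2, in a test of that difference (edgeR quasi-likelihood, Benjamini-Hochberg). EIF3F fell by 0.205 on the log2 scale (adjusted p = 3.6e-05) and EEF1A1 fell by 0.0783 (0.00028), and both calls were kept without any 1 of the 16 libraries. With limma on log2 TPM the call of EIF3F was kept and that of EEF1A1 was lost (0.133). EEF1G fell by 0.0575 (0.011), kept without any 1 library and lost without a filter on low counts (0.217) and with limma (0.433). EIF4E2 rose by 0.16 (0.013), kept without any 1 library and lost with DESeq2 (0.0945) and limma (0.209).

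EIF4B fell by 0.0738 (adjusted p = 0.018 from edgeR), with the call lost without LacZ day 1 replicate 2 (0.0502) or LacZ day 5 replicate 1 (0.0577), without a filter on low counts (0.133), and with limma on log2 TPM, where it had -0.01 (0.966). EIF3E fell by 0.11 (0.024), lost without BRD9 KO replicate 2 of day 1 (0.0739), LacZ replicate 2 of day 2 (0.0672), either second library of day 3 (0.053 for BRD9 KO, 0.0601 for LacZ), BRD9 KO replicate 1 of day 5 (0.0592) or LacZ replicate 2 of day 5 (0.0594), without a filter (0.0646) and with limma (0.176). EIF2D fell by 0.22 (0.04). Its call was lost without BRD9 KO replicate 2 (0.152) or either LacZ library of day 1 (0.0778 and 0.0693), without BRD9 KO replicate 2 (0.0936) or either LacZ library of day 2 (0.0794 and 0.0728), without replicate 1 of BRD9 KO (0.132) or LacZ (0.113) on day 3, and without BRD9 KO replicate 2 (0.138) or either LacZ library of day 5 (0.0793 and 0.0775). It was also lost with DESeq2 (0.176), with a replicate block (0.0649) and with limma on log2 TPM, where it had -0.09 (0.834).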

How the results depend on the processing

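No call of a named member changed sign under any alternative. With limma on log2 TPM, 0 members were called on day 1, 0 on day 2, 1 on day 3, 8 in the mean over days and 1 in late minus early, and 34 of the 58 calls of named members were lost, while all genes called fell to 11, 103, 412, 994, 1324, 317 and 1811 on days 1, 2, 3 and 5, in the mean, in late minus early and in LacZ day 5 minus day 1. On day 1, 0 members were called with only the libraries of the contrast and 0 with pseudogenes summed in. Without a filter on low counts the 1 call on day 1 was EIF5A, at a log2 fold change of -0.09 (adjusted p = 0.020), instead of EIF3E (0.053), and 290 of all genes were called there (49 with only the libraries of the contrast). DESeq2 kept 47 of the 58 calls and called 940 genes on day 3, 1393 on day 5, 1907 in the mean, 654 in late minus early and 2453 in the LacZ contrast. With 1 library left out, members called ranged from 0 to 1 on day 1 (never EIF3E, and EEF1A1 without LacZ replicate 2), 1 to 3 on day 2, 4 to 8 on day 3, 5 to 8 on day 5, 14 to 18 in the mean, 5 to 8 in late minus early and 20 to 22 in LacZ day 5 minus day 1, and all genes called from 15 to 30, 201 to 262, 841 to 1019 and 1446 to 1607 on the 4 days. The cause was not tested. DESeq2's size factors, the stricter filter and the fit without genes of mitochondrial DNA kept all 58 calls. Replicate numbers were not taken as pairs, since residuals of same-numbered libraries correlated at -0.04, -0.12, 0.10 and 0.18 on the 4 days over 6309 abundant genes; with a replicate block members called were 1 higher and 0 lower on day 1 (EEF1A1 instead of EIF3E, which had 0.0735), 1 and 4 on day 2, 1 and 8 on day 3, 3 and 8 on day 5, 4 and 12 in the mean, 1 and 5 in late minus early, and 17 and 9 in the LacZ contrast.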
